A study of Mus musculus with 12 samples.

Results

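A set of 10 heat shock chaperone genes was followed in RNA sequencing of CD8+ T cells sorted from Panc02 tumours. The set held 3 HSP70 genes (Hspa1a, Hspa1b and Hspa8), the HSP110 gene Hsph1, the J-domain genes Dnajb1 and Dnaja1, the HSP90 genes Hsp90aa1 and Hsp90ab1, and the mitochondrial chaperonin genes Hspd1 and Hspe1. They were picked by gene symbol, with earlier results of these data known. All 10 were found among the 56941 genes of the deposited table, and all 10 passed the filter on low counts, which left 18657 genes for testing.

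Panc02 is a mouse pancreatic tumour cell line, grown here in wild type C57BL/6J mice. Cells were sorted as DAPI-negative (viable), CD45.2+ and CD8+, and then as asGM1-negative or asGM1-positive, where asGM1 (asialo-GM1) is a glycosphingolipid of the cell surface. The tumours had been treated with an isotype control antibody or with an anti-PD-1 antibody, which blocks an inhibitory receptor of T cells. The 4 groups were isotype asGM1-negative, isotype asGM1-positive, anti-PD-1 asGM1-negative and anti-PD-1 asGM1-positive, with 3 libraries each. All 4 shared strain, genotype, tumour line and the DAPI, CD45.2 and CD8 gates. Doses, schedule, the age of the mice and any pooling of tumours are not given in the sources used here, and the labels do not say that replicates came from separate mice. The p-values below therefore measure the spread between libraries, which may be partly technical.

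Chaperones bind unfolded or immature proteins and help them reach their folded state. HSP70 proteins work in a cycle driven by ATP, in which J-domain proteins deliver clients and HSP110 proteins release the spent nucleotide, while HSP90 proteins take over late-folding clients such as kinases, among them the T cell kinase Lck. Under proteotoxic stress the transcription factor HSF1 forms trimers that bind heat shock elements, which are inverted repeats of the unit GAA, and Hspa1a, Hspa1b, Dnajb1 and Hsph1 are classic genes under this control, whereas Hspa8 and Hsp90ab1 are expressed in most cells without stress.

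Libraries held 58148469 to 73206178 counts, and each member was counted at least 1392 times in every library, so that counting error was small beside the spread between libraries. Levels are given as CPM, counts relative to the library total after scaling by edgeR's TMM factors, which ran from 0.970 to 1.04. The 6 markers of CD8 T cells were abundant in all 12 libraries, with Cd8a at 1590.2 to 2581 CPM and Cd3e at 1018 to 1300 CPM. Mitochondrially encoded genes took 0.309 to 0.782% of counts. Both anti-PD-1 libraries with the number 2 stood apart from the other 4 anti-PD-1 libraries in Hspa1a and Hspa1b RNA, but not in that of Hspa8. Results that rest on them are given with and without these libraries.

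Chaperone RNA was lower in anti-PD-1 libraries than in isotype libraries in both populations. The 10 genes summed to 5164, 5754 and 5946 CPM in isotype asGM1-negative libraries and to 5600, 6071 and 5984 CPM in isotype asGM1-positive cells. Under anti-PD-1 they summed to 3407, 4268 and 3857 CPM in asGM1-negative libraries and to 3644, 4314 and 4327 CPM in asGM1-positive libraries. The sums of the 6 isotype libraries all lay above those of the 6 anti-PD-1 libraries. Without Hspa1a and Hspa1b, the other 8 genes still summed to 4769 to 5447 CPM in isotype asGM1-negative and 4888 to 5148 CPM in isotype asGM1-positive cells, against 3337 to 3949 CPM and 3569 to 4274 CPM under anti-PD-1. In bulk RNA, fewer cells with high levels and less RNA per cell cannot be told apart.

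In asGM1-negative cells, 3 of the 10 genes passed the test of anti-PD-1 against isotype, all lower (Hsp90aa1, Hsp90ab1 and Hspe1), where 4.55% of all genes tested passed as lower and 8.75% in either direction. In asGM1-positive cells, 4 of 10 passed, all lower (Dnajb1, Hsp90aa1, Hsp90ab1 and Hspe1), where 3.04% of all genes passed as lower and 6.83% in either direction. No member passed as higher, where 4.21% and 3.78% of all genes did. Passing means a Benjamini-Hochberg adjusted p under 0.05 over all genes in edgeR's quasi-likelihood F test. The median log2 fold change of the 10 genes was -0.51 in asGM1-negative and -0.43 in asGM1-positive cells, beside -0.014 and -0.011 for all genes tested. The fitted values of all 10 were negative in both populations. The 3 anti-PD-1 libraries lay below the 3 isotype libraries for 7 members in asGM1-negative cells, where 15.8% of all genes did so, and for 9 members in asGM1-positive cells, where 12.2% did.

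These counts depended on single libraries, more so in asGM1-positive cells. In asGM1-negative cells Hsp90aa1, Hsp90ab1 and Hspe1 passed whichever of the 12 libraries was left out. In those fits 2.03 to 4.79% of all genes passed there as lower. Without the anti-PD-1 asGM1-negative replicate 2 (2.63% of all genes lower), or without both anti-PD-1 libraries numbered 2 (2.19%), 5 members passed in asGM1-negative cells, Hspa1a and Hspa1b having joined the other 3. Hspa1a and Hspa1b are near-identical copies, so counts that hold both do not count separate cases. In asGM1-positive cells 4 members also passed without both libraries numbered 2 (1.58%), but these were Dnajb1, Hsp90aa1, Hspa1a and Hspa1b, and Hsp90ab1 (adjusted p = 0.0939) and Hspe1 (adjusted p = 0.0910) no longer did. In asGM1-positive cells, 1 member passed without the isotype replicate 1 (1.91% of all genes lower). None passed without the isotype replicate 2 (1.94%) or the anti-PD-1 replicate 1 (1.41%), when the adjusted p-values of the 4 genes ranged from 0.0570 to 0.166. At an unadjusted p under 0.05 there were 8 members in asGM1-negative cells, beside 23.0% of all genes, and 9 in asGM1-positive cells, beside 21.0%, with all 12 libraries. DESeq2 called 4 members in asGM1-negative cells (7.95% of all genes as lower) and 7 in asGM1-positive cells (5.74%), and limma voom 5 (4.66%) and 6 (2.96%), all lower. The plot of log2 fold changes sets the fits with and without the libraries numbered 2 side by side.

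**Figure D1:**
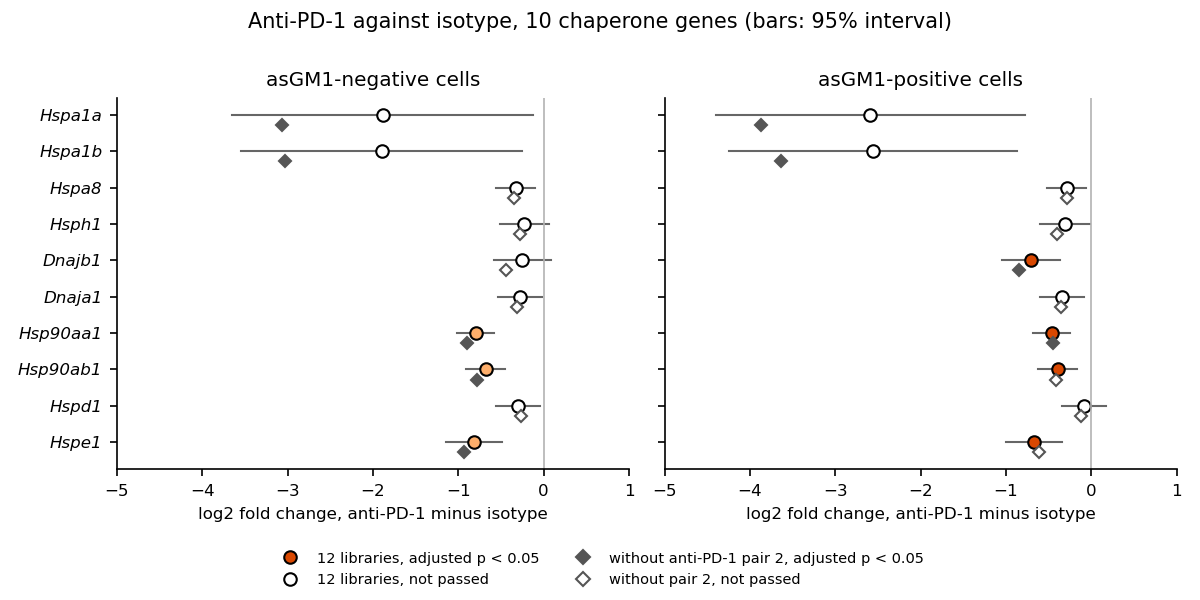
Log2 fold change of anti-PD-1 against isotype (x axis) for each of the 10 chaperone genes (y axis) in asGM1-negative cells (left) and asGM1-positive cells (right). Circles are the fit of all 12 libraries with its 95% interval, diamonds the fit without both anti-PD-1 libraries numbered 2, and filled symbols passed an adjusted p of 0.05 (edgeR). All 20 circles lie left of 0, and for Hspa1a and Hspa1b the diamonds lie further left, from -3.03 to -3.87.

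Per kilobase of exon (GENCODE vM21 gene models), Hsp90ab1 and Hspa8 were the most abundant members in every group. The length used was that of all annotated exons of a gene merged, not that of the transcripts expressed. It was 2999 bases for Hsp90ab1, 4301 for Hspa8, 7266 for Hsph1 and 8629 for Dnaja1. The order of members below depends on these lengths and may differ from that of their transcripts. In isotype asGM1-negative libraries Hsp90ab1 stood at 543 ± 11.5 and Hspa8 at 466 ± 56.3 CPM per kb (SD, n = 3). Hspa1b (107 ± 43.5), Hsp90aa1 (94.2 ± 1.56), Hspd1 (89.4 ± 16.1), Hspa1a (88.6 ± 28.6) and Dnajb1 (72.0 ± 7.22) followed, and neighbours in this order did not differ beyond their SDs. Dnaja1 stood at 42.0 ± 3.80, Hspe1 at 29.3 ± 3.6 and Hsph1 at 25.4 ± 4.45 CPM per kb, the last 2 within their SDs of each other. In isotype asGM1-positive libraries Hspa1b (159 ± 24.0) and Hspa1a (136 ± 17.8) came next after Hsp90ab1 (509 ± 16.6) and Hspa8 (475 ± 18.0), above Hsp90aa1 (89.4 ± 4.61), Dnajb1 (88.9 ± 3.07) and Hspd1 (87.7 ± 6.68), which lay within their SDs. Under anti-PD-1 in asGM1-negative libraries the leaders were Hspa8 (371 ± 26.3) and Hsp90ab1 (338 ± 41.1), within their SDs, then Hspd1 (72.8 ± 4.91), Dnajb1 (60.5 ± 13.2) and Hsp90aa1 (54.3 ± 6.90). Hspa1b (28.7 ± 27.1) and Hspa1a (24.0 ± 23.2) stood there beside Hsph1 (21.7 ± 1.45), below Dnaja1 (34.8 ± 3.79) and above Hspe1 (16.6 ± 2.2). The asGM1-positive libraries under anti-PD-1 held a like order, from Hspa8 (389 ± 37.1) and Hsp90ab1 (387 ± 43.4) through Hspd1 (82.4 ± 3.38), Hsp90aa1 (64.8 ± 4.78), Dnajb1 (54.4 ± 8.92) and Dnaja1 (32.9 ± 3.68) to Hspa1b (27.1 ± 24.8), Hspa1a (22.6 ± 23.1), Hsph1 (22.0 ± 2.53) and Hspe1 (18.1 ± 2.15). The places of Hspa1a and Hspa1b under anti-PD-1 were not resolved, since their SDs were about as large as their means.

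Hspa1a (ENSMUSG00000091971) and Hspa1b (ENSMUSG00000090877) encode the stress-inducible cytosolic HSP70. They are near-identical copies: their coding sequences differed at 7 of 1923 aligned bases (99.6% identity), so the split of reads between them is uncertain. The 250 bases before their start sites, read from RefSeq promoters (build GRCm38.p6, both on the minus strand of chromosome 17, chr17:34972157-34972406 for Hspa1a and chr17:34959239-34959488 for Hspa1b), differed at 3 bases. They are printed because the counts assigned to both genes moved together, with the split of shared reads uncertain. The capitals mark a match to the inverted repeat GAANNTTC, the minimal pair of heat shock units, 104 to 97 bases before the start in both.
Hspa1a: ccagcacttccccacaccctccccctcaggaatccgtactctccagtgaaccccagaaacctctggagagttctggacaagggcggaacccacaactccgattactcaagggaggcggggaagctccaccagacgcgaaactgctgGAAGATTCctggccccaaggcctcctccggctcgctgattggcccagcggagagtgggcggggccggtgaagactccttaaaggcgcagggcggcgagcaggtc
Hspa1b: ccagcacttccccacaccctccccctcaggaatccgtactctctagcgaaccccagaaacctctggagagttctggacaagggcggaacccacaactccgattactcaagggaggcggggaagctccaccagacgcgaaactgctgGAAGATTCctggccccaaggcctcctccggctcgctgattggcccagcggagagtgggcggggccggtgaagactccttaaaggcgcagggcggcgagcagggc

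Among isotype asGM1-negative libraries, Hspa1a stood at 188, 355 and 245 CPM, and among isotype asGM1-positive libraries at 343, 440 and 427 CPM. The anti-PD-1 values were 32.2, 151 and 30.9 CPM in asGM1-negative cells and 32.6, 146 and 22.5 CPM in asGM1-positive libraries. The libraries numbered 2 were thus 4.48 to 6.51 times as high as the other anti-PD-1 libraries of their population, yet below every isotype library. Hspa1b lay close to Hspa1a throughout, at 207, 438 and 254 CPM and at 369, 483 and 487 CPM under isotype. Under anti-PD-1 Hspa1b stood at 37.2, 168 and 36.0 CPM in asGM1-negative cells and at 41.7, 156 and 30.4 CPM in asGM1-positive libraries. Under isotype the number 2 was also the highest for Hspa1a in both populations, at 1.03 to 1.89 times the other libraries of its group. For Hspa1b this held in asGM1-negative cells only. Over the 12 libraries Hspa1a spanned 19.6-fold and Hspa1b 16.1-fold from lowest to highest, against 1.53-fold to 2.26-fold for the other 8 members.

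Neither gene passed the test of treatment when all 12 libraries were fitted, although groups did not overlap. For Hspa1a the log2 fold change was -1.88 ± 0.79 (SE) in asGM1-negative cells (adjusted p = 0.188, edgeR) and -2.59 ± 0.81 in asGM1-positive cells (adjusted p = 0.0940). For Hspa1b it was -1.90 ± 0.74 (adjusted p = 0.157) and -2.56 ± 0.76 (adjusted p = 0.0780). With the counts of both copies summed into 1 feature the values were -1.89 (adjusted p = 0.172) and -2.57 (adjusted p = 0.0862). Without both anti-PD-1 libraries numbered 2, Hspa1a was lower by a log2 fold change of -3.06, or 8.35-fold, in asGM1-negative cells (adjusted p = 0.00176), and by -3.87, or 14.7-fold, in asGM1-positive cells (adjusted p = 0.000395). Hspa1b then changed by -3.03 (adjusted p = 0.00262) and -3.63 (adjusted p = 0.000734). In that fit 2.19% and 1.58% of all genes passed as lower. The omission was chosen with the values of these libraries known, and it removed anti-PD-1 libraries only. The isotype libraries numbered 2, the highest of their groups for Hspa1a (355 and 440 CPM), were kept. Leaving out only the anti-PD-1 asGM1-negative replicate 2 also brought both genes past the threshold, in asGM1-negative cells (adjusted p = 0.0448 and 0.0313) and, since all groups share 1 fit, in asGM1-positive cells (0.0392 and 0.0260); leaving out the asGM1-positive replicate 2 did so in asGM1-positive cells (0.0161 and 0.0211). With all 12 libraries, limma voom called both genes in both populations (log2 fold changes -2.23 to -3.11, adjusted p from 0.00963 to 0.0394), and DESeq2 in asGM1-positive cells (adjusted p = 0.0254 and 0.0192).

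The counts assigned to the copies kept a steady ratio while their sum varied. Hspa1a took 42.5 to 49.0% of the summed counts of the pair in the 12 libraries. How reads that match both copies were assigned is not given in the sources used here, so this split may not be that of their RNA. The pair took 7.65 to 15.3% of all counts of the 10 members under isotype, 1.22 to 2.04% in the anti-PD-1 libraries numbered 1 and 3, and 7.47 and 7.0% in those numbered 2. The plot of both genes by library shows the gap within the anti-PD-1 groups.

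**Figure D2:**
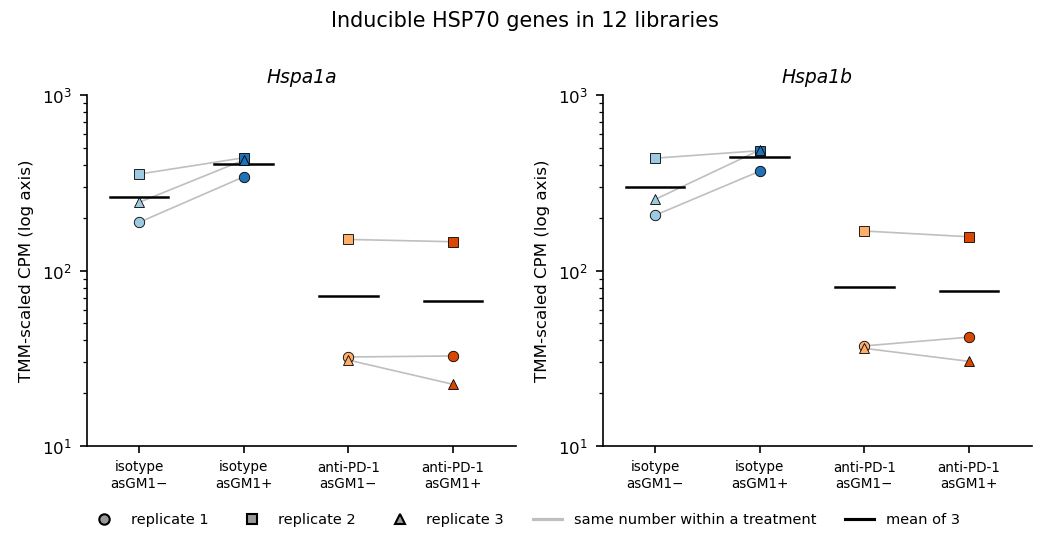
CPM (log axis) of Hspa1a and Hspa1b in each of the 12 libraries by group (x axis); marker shape gives the replicate number, grey lines join libraries with the same number within a treatment, and black bars are group means of 3. The squares under anti-PD-1, at 146 to 168 CPM, lie above the circles and triangles at 22.5 to 41.7 CPM and below all isotype libraries.

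The HSP90 genes varied little between isotype libraries and fell under anti-PD-1 in both populations. Hsp90aa1 (ENSMUSG00000021270), the inducible cytosolic HSP90, stood at 369.6, 377 and 365 CPM in isotype asGM1-negative and at 359, 365 and 331 CPM in isotype asGM1-positive cells. With anti-PD-1 it stood at 190.1, 243 and 207 CPM in asGM1-negative cells and at 239, 249 and 276 CPM in asGM1-positive libraries. No anti-PD-1 library reached the lowest isotype library. Hsp90aa1 fell in asGM1-negative cells by a log2 fold change of -0.79 ± 0.10 (SE), or 1.73-fold (adjusted p = 0.000913, edgeR), the smallest adjusted p of any member. It also fell in asGM1-positive cells, by -0.46 ± 0.10 or 1.38-fold (adjusted p = 0.0159), a call lost without the isotype asGM1-positive replicate 1 or 2 or the anti-PD-1 asGM1-positive replicate 1 or 2 (adjusted p from 0.0550 to 0.0764).

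Hsp90ab1 (ENSMUSG00000023944), the constitutive cytosolic HSP90, stood at 1627, 1592 and 1662 CPM in isotype asGM1-negative and at 1530.2, 1574 and 1474 CPM in isotype asGM1-positive cells. The anti-PD-1 libraries held 898, 1143 and 1003 CPM in asGM1-negative cells and 1022, 1178 and 1280.3 CPM in asGM1-positive cells. The treatment groups did not overlap in either population. Hsp90ab1 fell by -0.68 ± 0.10 on the log2 scale in asGM1-negative cells, or 1.60-fold (adjusted p = 0.00253). In asGM1-positive cells it fell by -0.40 ± 0.10, or 1.32-fold (adjusted p = 0.0424), a call close to the threshold. Leaving out any asGM1-positive or isotype library, or the anti-PD-1 asGM1-negative replicate 3, ended it (adjusted p from 0.0521 to 0.166), except for the anti-PD-1 asGM1-positive replicate 3. It also ended without both anti-PD-1 libraries numbered 2 (adjusted p = 0.0939), without the filter on low counts (0.0570) and with only the 6 libraries compared (0.104). The HSP90 genes moved together over the 12 libraries (Pearson r of log2 CPM 0.99, a description).

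One gene of the mitochondrial chaperonin pair passed the test of treatment. Hspd1 (HSP60, ENSMUSG00000025980) forms the barrel in which matrix proteins fold and Hspe1 (HSP10, ENSMUSG00000073676) is its lid. The genes lie head to head on chromosome 1, and the 250 bases before the RefSeq start of Hspe1 hold repeated heat shock units. The 30 bases around them are printed on both strands, as each gene reads them (GRCm38.p6, chr1:55088053-55088082, plus strand for Hspe1 and minus for Hspd1), because both genes read the same stretch, while 1 of them passed the test of treatment and the other did not. Capitals mark the run of units, 2 overlapping matches to the 3-unit repeats TTCNNGAANNTTC or GAANNTTCNNGAA. RefSeq gives Hspd1 another start, and the 250 bases before that start hold 0 matches. All 250 bases of the windows that do hold the run are annotated as exon.
Hspe1: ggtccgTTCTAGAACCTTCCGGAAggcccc
Hspd1: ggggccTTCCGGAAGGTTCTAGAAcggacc

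Hspe1 stood at 49.3, 40.2 and 39.98 CPM in isotype asGM1-negative and at 42.4, 49.6 and 35.9 CPM in isotype asGM1-positive cells. After anti-PD-1 it stood at 23.4, 28.1 and 21.9 CPM in asGM1-negative cells and at 25.5, 24.3 and 30.3 CPM in asGM1-positive libraries. The treatment groups did not overlap. Hspe1 fell by -0.82 ± 0.15 in asGM1-negative cells, or 1.76-fold (adjusted p = 0.00679), and by -0.67 ± 0.15 in asGM1-positive cells, or 1.60-fold (adjusted p = 0.0203). The call in asGM1-positive cells was lost without the isotype asGM1-positive replicate 1 or 2 or the anti-PD-1 asGM1-positive replicate 1 or 2 (adjusted p from 0.0542 to 0.0921), without both anti-PD-1 libraries numbered 2 (0.0910), and with only the 6 libraries compared (0.0589).

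Hspd1 stood at 207, 217 and 285 CPM in isotype asGM1-negative and at 224, 219 and 252 CPM in isotype asGM1-positive cells. The anti-PD-1 libraries held 185, 185 and 207 CPM in asGM1-negative cells and 213, 228 and 212 CPM in asGM1-positive cells. The groups overlapped in both populations, and the test was not passed in either (-0.30 ± 0.12, adjusted p = 0.157, and -0.090 ± 0.12, adjusted p = 0.753). The ratio of Hspd1 to Hspe1 counts was 4.20 to 7.13 in the 6 isotype libraries and 6.59 to 9.47 in the 6 anti-PD-1 libraries, so that the ranges overlapped. No test was made of the difference between the 2 genes.

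Of the J-domain genes, Dnajb1 (ENSMUSG00000005483), the stress-inducible HSP40, stood at 211, 256 and 224 CPM in isotype asGM1-negative and at 276, 296 and 283 CPM in isotype asGM1-positive cells. After anti-PD-1 it stood at 161, 242 and 179 CPM in asGM1-negative cells and at 151, 206 and 166 CPM in asGM1-positive libraries. The libraries numbered 2 were the highest of their groups under anti-PD-1 and also under isotype. In asGM1-negative cells the anti-PD-1 replicate 2 lay inside the isotype range. Dnajb1 fell in asGM1-positive cells by -0.71 ± 0.15, or 1.63-fold (adjusted p = 0.0179), and its value in asGM1-negative cells was -0.25 ± 0.15 (adjusted p = 0.371). Without both anti-PD-1 libraries numbered 2 these were -0.85 (adjusted p = 0.00431) and -0.44 (adjusted p = 0.0613). The call in asGM1-positive cells was lost without the isotype asGM1-positive replicate 2 or the anti-PD-1 asGM1-positive replicate 1 or 3 (adjusted p from 0.0539 to 0.0876).

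Dnaja1 (ENSMUSG00000028410), the other J-domain gene of the set, stood at 326, 389.6 and 372 CPM in isotype asGM1-negative and at 321, 381 and 374 CPM in isotype asGM1-positive cells. The anti-PD-1 libraries held 262, 315 and 322 CPM in asGM1-negative cells and 249.7, 288 and 313 CPM in asGM1-positive cells. Every anti-PD-1 library lay below every isotype library of its population by a small margin. The log2 fold changes of -0.27 ± 0.12 (adjusted p = 0.190) and -0.34 ± 0.12 (adjusted p = 0.118) did not pass. DESeq2 called Dnaja1 in asGM1-positive cells (adjusted p = 0.0466).

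Hspa8 (ENSMUSG00000015656), the constitutive HSP70, was the most counted member, at 1819, 1916 and 2278 CPM in isotype asGM1-negative and at 1954, 2072 and 2100.2 CPM in isotype asGM1-positive cells. Under anti-PD-1 it stood at 1471, 1625 and 1692 CPM in asGM1-negative cells and at 1524, 1658 and 1842 CPM in asGM1-positive libraries. Groups did not overlap, and the log2 fold changes were -0.33 ± 0.10 (adjusted p = 0.0757) and -0.29 ± 0.10 (adjusted p = 0.138). The first passed with upper-quartile scaling (-0.35, adjusted p = 0.0464) and with DESeq2 (-0.34, adjusted p = 0.0127). Hsph1 (HSP110, ENSMUSG00000029657) stood at 159, 173 and 221 CPM in isotype asGM1-negative and at 181, 192 and 219.9 CPM in isotype asGM1-positive cells, against 147, 168 and 157 CPM and 144, 180.2 and 155 CPM under anti-PD-1. Its values of -0.23 ± 0.13 (adjusted p = 0.341) and -0.31 ± 0.13 (adjusted p = 0.206) did not pass, and its groups overlapped in asGM1-negative but not in asGM1-positive cells.

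**Figure D3:**
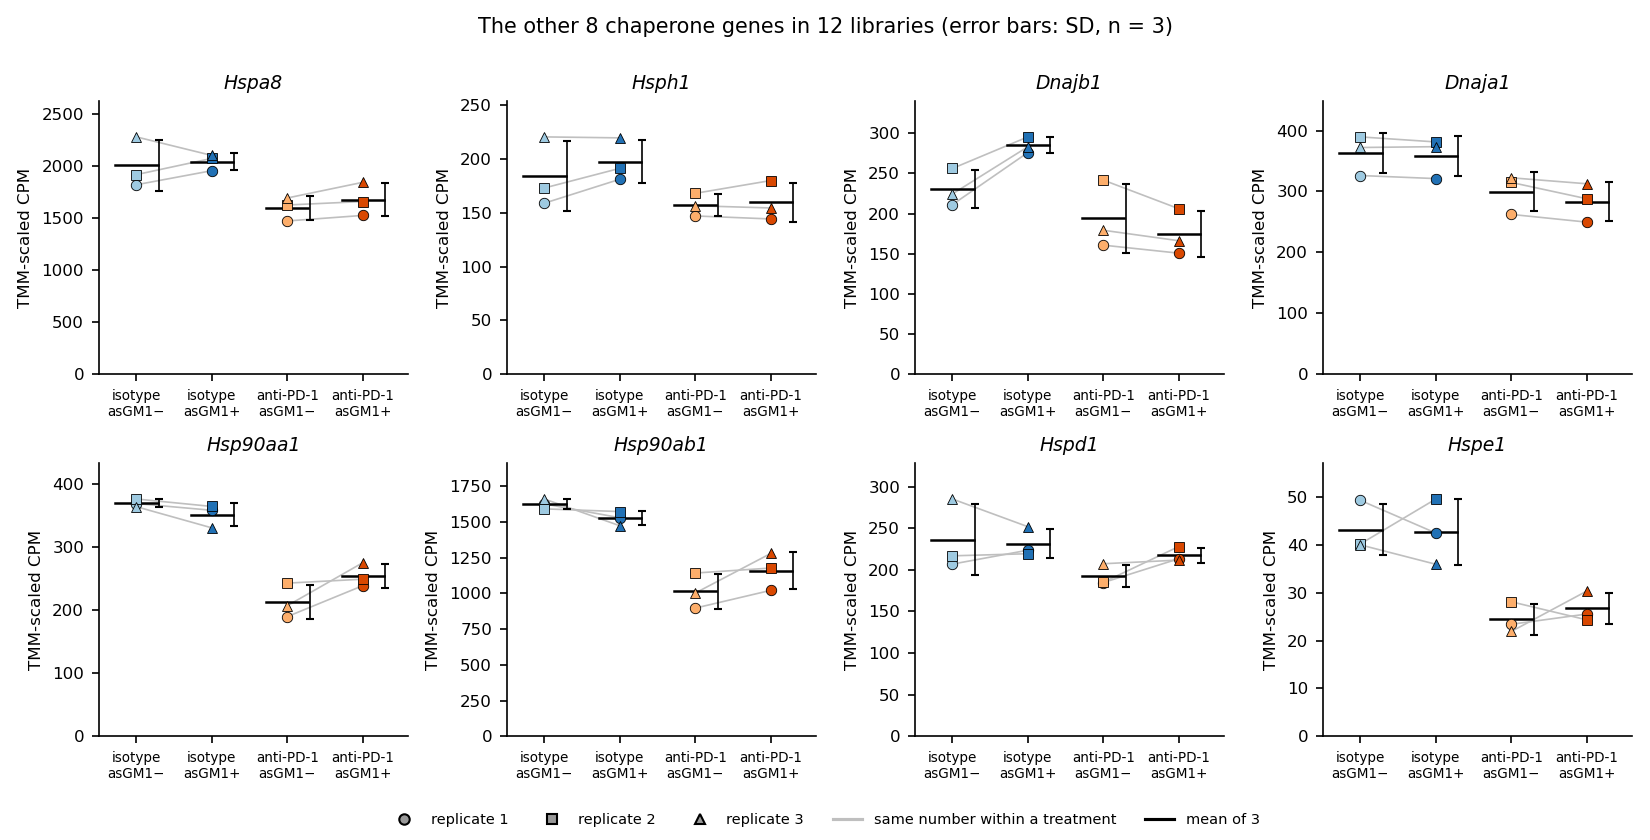
CPM (linear axes from 0) of the 8 members other than Hspa1a and Hspa1b in each of the 12 libraries by group; shapes give replicate numbers, grey lines join the same number within a treatment, black bars are means and error bars SD (n = 3). Hsp90aa1 and Hsp90ab1 show narrow isotype groups above the anti-PD-1 groups, with Hsp90aa1 at 331 to 377 CPM against 190.1 to 276 CPM, and the groups of Hspd1 overlap.

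The promoter windows of all members with an entry were searched for the same letters. The set of RefSeq promoters used here held a window for 7 of the 10 members and lacked Hsp90aa1, Hsp90ab1 and Hspa8. GAANNTTC or TTCNNGAA on either strand occurred within 250 bases before a start of 6 of the 7, against 14.5% of 27025 genes with windows of that length. These 6 were not separate cases, since Hspa1a and Hspa1b have near-identical windows and Hspd1 and Hspe1 share a stretch. The 3-unit repeats occurred in 2 members, Hspd1 and Hspe1, which share the stretch, against 0.514% of genes. The matches of Dnaja1 (chr4:40722333-40722362, plus strand) and Hsph1 (chr5:149636351-149636380, minus strand) are printed with 30 bases each, capitals marking the match, and Dnajb1 (chr8:83607972-83608174, plus strand) is printed as the member without a match, since its RNA ran closest to that of Hspa1a and Hspa1b. A match describes letters only and shows no binding, and its absence says nothing beyond this window.
Dnaja1: aaaagcctctaGAAAATTCtacgaggctcg
Hsph1: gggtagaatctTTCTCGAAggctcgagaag
Dnajb1: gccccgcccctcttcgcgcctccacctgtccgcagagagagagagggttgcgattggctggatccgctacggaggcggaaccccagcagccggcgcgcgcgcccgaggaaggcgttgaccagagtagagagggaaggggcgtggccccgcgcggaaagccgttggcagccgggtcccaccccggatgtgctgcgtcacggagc

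Between asGM1-positive and asGM1-negative cells under isotype, 0 of 10 members passed, where edgeR called 1.3% of all genes. No member had an unadjusted p under 0.05 in this comparison, where 12.5% of all genes did, and DESeq2 (4.28% of all genes) and limma voom (1.53%) also called 0. Dnajb1 was the one member whose asGM1-positive libraries lay above all asGM1-negative libraries (log2 fold change 0.31 ± 0.15, adjusted p = 0.454), where 7.94% of all genes did so. Hsp90ab1 was the one member in the reverse order (-0.093 ± 0.10, adjusted p = 0.802), where 8.4% did. Hspa1a was 0.62 ± 0.76 higher (adjusted p = 0.832) with overlapping groups.

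Libraries of both populations that carried the same number within a treatment deviated together, and with this pair as a block 2 members passed under isotype. Hspa1a was then higher in asGM1-positive cells by 0.66 (adjusted p = 0.0287) and Dnajb1 by 0.31 (adjusted p = 0.0358), in a fit that called 4.05% of all genes, 1.92% as higher. Hspa1b had a value of 0.64 (adjusted p = 0.0555). The log2 ratio of asGM1-positive to asGM1-negative within pairs was 0.86, 0.31 and 0.80 for Hspa1a and 0.39, 0.21 and 0.34 for Dnajb1, above 0 in 3 of 3 pairs for both.

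Under anti-PD-1, 0 of 10 members passed between the populations, where edgeR called 1.6% of all genes, and with the pair as a block 0 passed where 4.98% of all genes did. One member, Hsp90aa1, had an unadjusted p under 0.05 (0.25 ± 0.10, adjusted p = 0.318), where 11.4% of all genes did, and DESeq2 (4.57% of all genes) and limma voom (1.46%) called 0. Hspd1 was the one member whose groups lay apart, higher in asGM1-positive cells (0.18 ± 0.12, adjusted p = 0.686), where 10.2% of all genes did so. The ratios for Hspa1a within pairs were 0.020, -0.044 and -0.46, so that the high values under the number 2 stood in both populations. Dnajb1 was at -0.093, -0.23 and -0.11. Hsp90aa1 was at 0.33, 0.037 and 0.41 and Hsp90ab1 at 0.19, 0.043 and 0.35 under anti-PD-1, while both were below 0 in 3 of 3 isotype pairs.

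The response to anti-PD-1 was compared between the populations through the interaction term, the response in asGM1-positive minus that in asGM1-negative cells. No member passed, and no gene of the 18657 tested passed (0%, lowest adjusted p = 0.269 over all genes and 0.664 among the members). At an unadjusted p under 0.05 there was 1 member, Hsp90aa1, and 1341 genes (7.19%) in all, and DESeq2 called 136 genes (0.729%) and 0 members, and limma voom 0 genes. The interaction was 0.33 for Hsp90aa1 with a 95% interval from 0.025 to 0.63, and -0.46 for Dnajb1 with an interval from -0.93 to 0.015. For Hspa1a the interval ran from -3.12 to 1.71, so that differences of several fold in either direction could not be told from none. With the pair as a block, Dnajb1 stood at -0.45 (adjusted p = 0.0778) and Hspa1a at -0.82 (adjusted p = 0.0955), where 0.0697% of all genes passed. Sign patterns within pairs, opposite between treatments for Dnajb1, Hsp90aa1 and Hsp90ab1, therefore had no passing test.

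**Figure D4:**
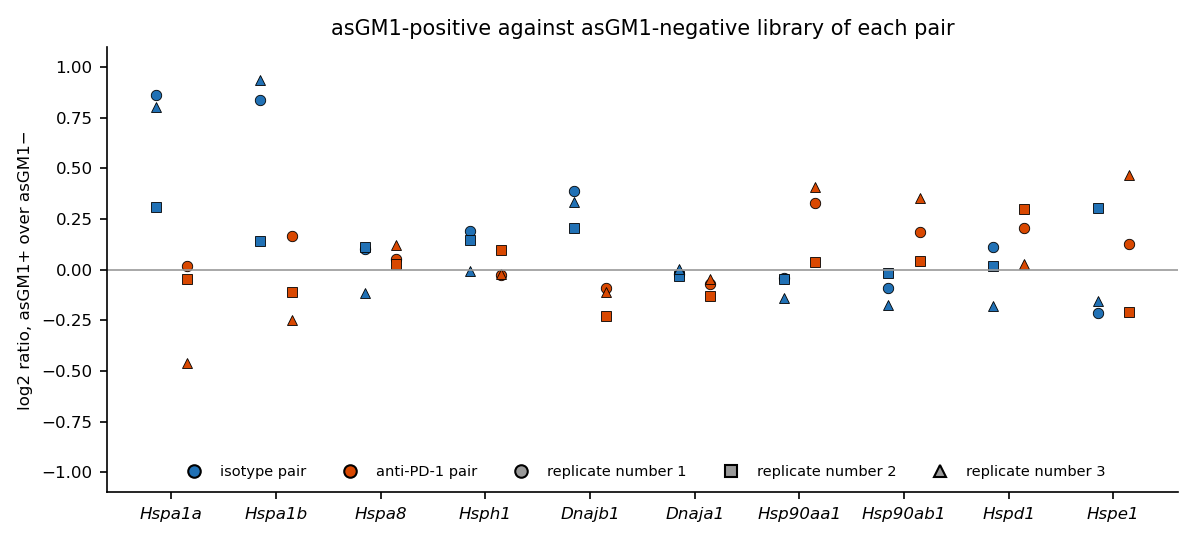
Log2 ratio of the asGM1-positive over the asGM1-negative library with the same replicate number (y axis) for each member (x axis), isotype pairs in blue and anti-PD-1 pairs in orange, with marker shape for the number. Dnajb1 lies above 0 in all 3 isotype pairs and below 0 in all 3 anti-PD-1 pairs, and Hsp90aa1 and Hsp90ab1 show the reverse.

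Members differed in how closely they followed each other. Pearson correlations of log2 CPM over the 12 libraries, which share the treatment difference and are given as a description, ran from 0.36 for Hspd1 with Dnajb1 to 0.998 for Hspa1a with Hspa1b, with a median of 0.76 over 45 pairs. For Hspa1a with Hspa1b, the split of reads that match both is uncertain, so their correlation may not be that of their RNA. Dnajb1 ran closest to Hspa1b and Hspa1a (0.95 for both), Hspe1 to Hsp90aa1 (0.95), and Hspd1 to Hsph1 (0.82).

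Among 9340 other genes whose mean log2 CPM reached 3, the genes most like each member over the 12 libraries were as follows. Members themselves were left out of this search. For Hspa1a they were Cep85 (r = 0.93), Car9 (0.93) and Emid1 (0.93), and for Hspa1b Cep85 (0.95), Mycbp (0.93) and Ly6g5b (0.93). For Dnajb1 they were Emid1 (0.97), Cep85 (0.93) and Spsb1 (0.93). Cep85, which encodes a centrosomal protein, stood at 136 to 197 CPM in isotype and at 81.0 to 116 CPM in anti-PD-1 libraries, and the library numbered 2 was the highest in each of the 4 groups. Hspd1 was most like Fkbp4 (0.96), an HSP90 cochaperone, Sf3a3 (0.95) and Hnrnpm (0.95). Hspe1 was most like Dmac1 (0.99), Tmsb10b (0.98) and Exosc1 (0.97), Hsph1 like Irf2bp1 (0.94), Rbm10 (0.91) and Mogs (0.91), and Dnaja1 like Nsun5 (0.94), Tnfaip8l1 (0.93) and Klhdc4 (0.92).

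Outside the set, the closest matches of Hsp90aa1 and Hspa8 were their own copies. Hsp90aa1 was still closer to the member Hsp90ab1 (r = 0.99). Gm12346 (r = 0.98 with Hsp90aa1 and with Hsp90ab1) is annotated as a transcribed processed pseudogene and is 99.5% identical to Hsp90aa1 over 2255 bases. Gm15459 (r = 0.98 with Hspa8) is a processed pseudogene 99.7% identical to Hspa8 over 1941 bases. Gm12346 held 5.48 to 6.48% of the CPM summed with Hsp90aa1, and Gm15459 12.8 to 13.7% of that summed with Hspa8, in all 12 libraries. How reads with several matches were counted is not given in the sources used here, so the split of reads between each gene and its copy is uncertain. Next after the copies, Hsp90aa1 was most like Dbi (0.97) and Rbm8a (0.97), Hsp90ab1 like Snu13 (0.98) and Rexo2 (0.97), and Hspa8 like Srsf3-ps (0.96) and Mrpl37 (0.96).

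Other genes of the chaperone system showed a mixed picture. Of the heat shock factors, Hsf1 stood at 69.4 to 107 CPM over the 12 libraries and did not pass (0.21 ± 0.13 in asGM1-negative cells, adjusted p = 0.404, and -0.077 ± 0.13 in asGM1-positive cells, adjusted p = 0.822). Hsf2 was scarce, at 1.33 to 2.27 CPM under isotype and 2.77 to 4.36 CPM under anti-PD-1, and rose in asGM1-positive cells by 1.25 ± 0.26 (adjusted p = 0.0159). In asGM1-negative cells Hsf2 was at 0.81 ± 0.26 (adjusted p = 0.0784). Hsf4, also scarce, fell in asGM1-positive cells by -1.44 ± 0.32 (adjusted p = 0.0196). Hsf3 and Hsf5 had 0 counts in every library.

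Of 12 other cytosolic J-domain genes, 2 passed in asGM1-negative and 1 in asGM1-positive cells, all higher under anti-PD-1, where 4.21% and 3.78% of all genes passed as higher. Dnajb4 stood at 12.5, 16.5 and 11.7 CPM in isotype asGM1-negative and at 13.7, 17.3 and 11.3 CPM in isotype asGM1-positive cells, and at 32.7, 23.1 and 26.3 CPM and 33.6, 22.6 and 21.9 CPM under anti-PD-1. It rose by 1.01 ± 0.22 (adjusted p = 0.0155) and by 0.89 ± 0.22 (adjusted p = 0.0328). Dnajb6 rose in asGM1-negative cells by 0.36 ± 0.08 (adjusted p = 0.0196).

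Of 8 other HSP70 and HSP110 genes, none passed in either population, beside 8.75% and 6.83% of all genes in either direction. At an unadjusted p under 0.05 there were 0 and 1 of them, beside 23.0% and 21.0% of all genes. Of 9 genes for HSP70 exchange and partner factors, 1 passed, Hspbp1, an exchange factor of HSP70, which fell in asGM1-negative cells by -0.58 ± 0.11 (adjusted p = 0.00915). Of 14 HSP90 cochaperones, 1 fell in asGM1-negative cells (Cacybp, -0.43 ± 0.09, adjusted p = 0.00967) and 2 in asGM1-positive cells (Cacybp, -0.36 ± 0.09, adjusted p = 0.0262, and Cdc37, which brings kinases to HSP90, -0.31 ± 0.08, adjusted p = 0.0309). Over all genes tested, 4.55% passed as lower in asGM1-negative and 3.04% in asGM1-positive cells. The median log2 fold change of the cochaperones was -0.18 and -0.16. Of 5 small heat shock proteins tested out of 10 listed, Hspb1 (HSP27) fell in asGM1-positive cells, from 11.2, 8.97 and 5.89 CPM to 0.878, 1.83 and 0.187 CPM (-3.18 ± 0.67, adjusted p = 0.0154). In asGM1-negative cells Hspb1 was at -1.76 ± 0.63 (adjusted p = 0.113).

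Of 14 genes of the TRiC chaperonin and prefoldin, which fold actin and tubulin, 2 fell in asGM1-negative cells, where 4.55% of all genes did. These were Pfdn6 (-0.47 ± 0.12, adjusted p = 0.0343) and Cct5 (-0.34 ± 0.10, adjusted p = 0.0445). In asGM1-positive cells 0 of the 14 passed, with 2 there at an unadjusted p under 0.05, beside 21.0% of all genes. Of 11 mitochondrial chaperones and proteases other than the members, 0 passed in either population. At an unadjusted p under 0.05 there were 2 and 2, beside 23.0% and 21.0% of all genes. Hspa9, the mitochondrial HSP70, stood at -0.26 ± 0.19 (adjusted p = 0.463) and 0.11 ± 0.19 (adjusted p = 0.810), and Trap1, the mitochondrial HSP90, at -0.25 ± 0.14 (adjusted p = 0.336) and -0.19 ± 0.14 (adjusted p = 0.495).

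Of 16 chaperones of the endoplasmic reticulum, 5 fell in asGM1-negative and 4 in asGM1-positive cells, where 4.55% and 3.04% of all genes did. Calr, a lectin chaperone, fell by -0.58 ± 0.09 (adjusted p = 0.00311) and by -0.35 ± 0.09 (adjusted p = 0.0454), and Sdf2l1 by -0.61 ± 0.11 (adjusted p = 0.00595) and by -0.40 ± 0.11 (adjusted p = 0.0497). Hspa5 (BiP), the HSP70 of this compartment, stood at -0.32 ± 0.13 (adjusted p = 0.147) and -0.29 ± 0.13 (adjusted p = 0.209), and its HSP90, Hsp90b1, at -0.47 ± 0.14 (adjusted p = 0.0614) and -0.046 ± 0.14 (adjusted p = 0.910). Between the populations, 0 genes of these 9 lists passed under either treatment in edgeR with all 12 libraries, where 1.3% (isotype) and 1.6% (anti-PD-1) of all genes did. At an unadjusted p under 0.05 the most were 4 of the 14 HSP90 cochaperones under isotype, beside 12.5% of all genes. Under anti-PD-1 the most were 7 of the 16 endoplasmic reticulum chaperones, beside 11.4%.

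Other lists moved with treatment beside the chaperones. Of 15 immediate-early genes, another set of rapidly inducible genes, 4 rose in asGM1-negative and 2 in asGM1-positive cells under anti-PD-1, and 0 fell. Over all genes, 4.21% and 3.78% passed as higher. Nr4a1 rose by 1.28 ± 0.36 (adjusted p = 0.0452) and 1.32 ± 0.36 (adjusted p = 0.0474), while Fos (0.090 ± 0.26, adjusted p = 0.884, and -0.41 ± 0.26, adjusted p = 0.405) and Jun (0.33 ± 0.22, adjusted p = 0.410, and 0.13 ± 0.22, adjusted p = 0.816) did not pass. Of 15 proliferation genes, 11 fell in asGM1-negative cells, where 4.55% of all genes did. Their sum there was 3004 to 4043 CPM under isotype and 1943 to 2158 CPM under anti-PD-1. In asGM1-positive cells 0 passed, with sums of 3481 to 4415 and 3324 to 3649 CPM. There 3 genes had an unadjusted p under 0.05, beside 21.0% of all genes. Cdk1, which drives entry into mitosis, fell by -0.91 ± 0.11 (adjusted p = 0.000701) in asGM1-negative cells. Between the populations, 12 of these 15 genes were called higher in asGM1-positive cells under anti-PD-1, where 177 of the 18657 genes tested were. Under isotype 0 of the 15 were, where 68 of all genes were. An unadjusted p under 0.05 was seen there for 6 of the 15, beside 12.5% of all genes. The part of proliferation in the chaperone results was not tested.

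Markers of other cells were compared over the same groups. Of 18657 genes tested, 68 were called higher and 175 lower in asGM1-positive cells under isotype, and 177 and 122 under anti-PD-1. Under anti-PD-1 against isotype, 4.21% of all genes passed as higher and 4.55% as lower in asGM1-negative cells. In asGM1-positive cells 3.78% passed as higher and 3.04% as lower. Treatment gave an unadjusted p under 0.05 for 23.0% and 21.0% of all genes. The 5 markers of tumour epithelium summed to 60.1 to 87.8 CPM in isotype asGM1-negative and 88.5 to 107 CPM in isotype asGM1-positive cells, and to 23.9 to 31.1 and 15.6 to 26.8 CPM under anti-PD-1. One of the 4 that could be tested, Cdh1, fell in each population (-1.54 ± 0.20, adjusted p = 0.00110, and -2.48 ± 0.21, adjusted p = 4.8e-05), and it made up most of the sum, at 52.6 to 101 CPM under isotype and 12.8 to 26.1 CPM under anti-PD-1. Krt19 had 0 counts in every library, and Krt8 and Epcam stood at no more than 2.53 and 5.33 CPM. The 10 macrophage markers summed to 70.2 to 82.0 and 208 to 298 CPM under isotype, and to 74.7 to 114 and 176 to 308 CPM under anti-PD-1, and 7 of the 10 were called higher in asGM1-positive cells under isotype and 6 under anti-PD-1. Between treatments 0 of 10 passed in asGM1-negative cells, with 2 at an unadjusted p under 0.05, and in asGM1-positive cells C1qa fell and Cd68 rose. The 5 fibroblast markers summed to 0.578 to 2.22 CPM and 2.65 to 21.0 CPM under isotype, and to 0.42 to 0.80 CPM and 0.547 to 1.21 CPM under anti-PD-1. The 5 plasmacytoid dendritic cell markers summed to 203 to 338 and 74.1 to 145 CPM under isotype, and to 124 to 161 and 67.9 to 75.8 CPM under anti-PD-1, and 4 and 3 of the 5 were called lower in asGM1-positive cells. The 4 markers of CD4 and regulatory T cells summed to 164 to 255 CPM, those of NK cells to 20.3 to 64.5 CPM and those of B cells to 1.32 to 7.16 CPM, with Ms4a1 at 0 in every library. Foxp3, the factor of regulatory T cells, was lower in asGM1-positive cells under isotype (-3.17 ± 0.46, adjusted p = 0.00691) and anti-PD-1 (-2.81 ± 0.45, adjusted p = 0.0116), and the B cell gene Cd79b under isotype (-1.47 ± 0.29, adjusted p = 0.0342). Of the NK markers, Klrb1c fell (-2.62 ± 0.57, adjusted p = 0.0175) and Eomes rose (1.06 ± 0.29, adjusted p = 0.0496) under anti-PD-1 in asGM1-positive cells. The 5 erythroid genes reached 8.88 CPM at most. Of the 6 CD8 T cell markers, 2 fell under anti-PD-1 in asGM1-positive cells, Cd8a (-0.48 ± 0.09, adjusted p = 0.00741) and Cd3g (-0.57 ± 0.13, adjusted p = 0.0256), and 0 passed in asGM1-negative cells, with 1 at an unadjusted p under 0.05. The part of these cells in the chaperone results was not tested.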

How the data were processed

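Per the labels' protocols, RNA was extracted with TRIzol, and a TruSeq mRNA kit and a SMARTer ultra-low-input kit were named for the libraries. The submitters' processing notes list HISAT2, StringTie and mm39. The file the authors deposited holds 1 row of whole counts for each gene; how the counts were derived from alignments, and the use of strand, are not given in the sources used here. Counts were tested with edgeR 4.0.16 (R 4.3.3, limma 3.58.1): expression filter by group, TMM scaling, robust dispersion, quasi-likelihood F test in 1 fit of 12 libraries with a mean per group, Benjamini-Hochberg over 18657 genes, threshold 0.05. A standard error is the size of the log2 fold change over the square root of its F, and the fit had 8 residual degrees of freedom. DESeq2 1.42.0, limma voom, other scalings, blocks and omissions were alternatives.

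Same-numbered libraries of both populations of a treatment deviated together (correlations 0.121 to 0.298 over 6 pairs), so these numbers were taken as pairs; numbers across treatments did not (-0.118 to 0.0497). Exon lengths, pseudogene types and coding sequences came from GENCODE vM21, and promoters from RefSeq, both on GRCm38, which is not the build of the counts, so no coordinates of the counts are printed. Copies were compared with blastn 2.17.0. The members, the 21 gene lists, the alternatives and the rule for names were chosen with earlier results of these data known. That rule took all members, a fixed set of partners, and up to 4 genes per list with the smallest p among those past the threshold. For each member it also took the 3 genes outside the set with the most similar pattern.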

Additional observations from a re-analysis of the deposited data

How the results depend on the processing

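No scaling, filter or test reversed a member in either treatment comparison. Over all genes, counts called moved with the setting: from 1633 to between 778 and 2756 for treatment in asGM1-negative cells, from 1274 to between 616 and 2264 in asGM1-positive cells, from 299 to between 17 and 929 between populations under anti-PD-1, from 243 to between 80 and 798 under isotype, and from 0 to at most 136 for the interaction. Among members, the 3 called in asGM1-negative cells became 5 with limma voom, 7 with a replicate block by the number shared by all groups (4.81% of all genes lower), and 5 without both anti-PD-1 libraries numbered 2; leaving out each library in turn gave 3 to 5. The 4 called in asGM1-positive cells became 7 with DESeq2, 2 with only the 6 libraries compared and 8 with the shared-number replicate block (3.41%); leaving out each library gave 0 to 6. Over all genes, numbers shared across treatments did not pair the libraries, so that block is given as a count only. Wherever both were called, the near-identical copies Hspa1a and Hspa1b entered these counts as 2 members. With the replicate block by pair within treatment, 0 became 2 under isotype, and the pairing changed no other call of a member. A fit without the robust option, chosen after seeing the data, called 5 in asGM1-positive cells.

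Signs of differences near 0 depended on single libraries. Leaving out each in turn, asGM1-positive minus asGM1-negative under isotype ran from -0.040 to 0.13 for Hspa8, -0.12 to 0.13 for Hspd1, -0.15 to 0.093 for Hspe1 and -0.088 to 0.058 for Dnaja1. Under anti-PD-1 it ran from -1.37 to 1.09 for Hspa1a, -1.16 to 1.05 for Hspa1b, -0.0045 to 0.15 for Hspa8, -0.074 to 0.11 for Hsph1, -0.29 to 0.031 for Dnajb1 and -0.17 to 0.020 for Dnaja1, and Hsph1 was -0.035 without both anti-PD-1 libraries numbered 2. The interaction ran from -1.99 to 0.48 for Hspa1a, -1.73 to 0.49 for Hspa1b, -0.059 to 0.13 for Hspa8, -0.23 to 0.018 for Hsph1 and -0.15 to 0.044 for Dnaja1. Treatment in asGM1-positive cells ran from -0.16 to 0.075 for Hsp90b1 and -0.037 to 0.21 for Hspa9. The cause was not tested.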
